A study of Homo sapiens with 8 samples.

Results

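The genes described here build ribosomes in the nucleolus, and 40 of the 42 listed were measured on 8 single-colour Affymetrix expression arrays, among 18132 genes in all. A gene was taken when a probe set carried its symbol alone, and the probe set with the highest mean signal over the 8 arrays stood for it. GNL3 and DDX18 were the listed genes without such a probe set. The 40 genes fell into 5 roles: 2 subunits of RNA polymerase I, 8 box C/D and H/ACA snoRNP proteins, 15 factors of the small subunit processome and of small subunit maturation, 11 factors of large subunit assembly, and 4 other nucleolar proteins.

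The arrays held total RNA of H3122, an established human lung adenocarcinoma line with the EML4-ALK fusion, and of 2 lines derived from it that resist ceritinib, H3122-LR2 (LR2 below) and H3122-LR3 (LR3). Parental H3122 and LR2 had an untreated array, a crizotinib array and a ceritinib array each, both agents being inhibitors of the ALK kinase. LR3 had no crizotinib array. The dose was 1000 nM and the time was 6 h, all cells grew in RPMI with fetal bovine serum, and all lines carry the fusion. Every condition had 1 array, nothing in the labels describes separate cultures, and each resistant line is a single derivative, so a p-value below measures only the spread among these 8 arrays. Precision is limited by having 8 arrays.

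Ribosome production starts with RNA polymerase I, which transcribes the long ribosomal RNA precursor in the nucleolus. The small subunit processome folds and cuts the precursor, box C/D and H/ACA snoRNPs guide its methylation and pseudouridylation, and separate sets of factors assemble the small and the large subunit before export. Growth-factor signalling and the transcription factor MYC are known activators of many of these genes, and enlarged nucleoli are a long-known feature of tumour cells.

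Values are deposited log2 signals of a probe set, so that a difference of 1 is a factor of 2. Each array difference was centred on its median over all genes. The median over all probe sets was 5.46 in LR2 with ceritinib, whose centring offset of 0.07 was the largest, and 5.31 to 5.36 on the other 7 arrays. A floor of 5.36, the 50th percentile of all values, was exceeded in at least 2 arrays by 10527 genes, and all 40 members were among them. Epithelial and lung adenocarcinoma markers marked the cells as labelled: 10 of 12 were above the floor on every array, with a log2 summed level of 15.32 to 15.61. The exceptions were SFTPA1 and SFTPA2, which were low in LR3 alone. They were at 4.87 and 5.17 in untreated LR3 and at 4.94 and 5.38 with ceritinib, against 6.47 to 6.83 on the other arrays. None of 8 fibroblast markers exceeded the floor anywhere (summed level 6.72 to 6.92). Of 7 leukocyte markers 1 did, CD68, at most 5.44 on any array (summed level 6.81 to 6.98). Of 6 endothelial markers 3 did, CDH5, VWF and KDR, 2 of them on every array (summed level 7.83 to 8.07). In these bulk samples, fewer cells with a transcript and less of it in each cell cannot be told apart.

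Most of the 40 genes had lower signal after crizotinib in both lines that received it and after ceritinib in parental cells, and smaller differences after ceritinib in the resistant lines. In parental cells the median difference of the members from untreated was -0.38 with crizotinib and -0.42 with ceritinib. It was -0.36 in LR2 with crizotinib, -0.11 in LR2 with ceritinib and -0.24 in LR3 with ceritinib. Over all genes tested the medians of the same differences lay between -0.01 and 0.02. In that order of arrays, 36, 36, 36, 33 and 35 of the 40 members were below 0.

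A fall of at least 0.5 log2 units (1.41-fold) was counted in each single-array difference, as a description with no test. With crizotinib in parental cells 16 members fell that far, against 4.03% of all genes tested. With ceritinib in parental cells 16 members did, against 4.18%. With crizotinib in LR2 again 16 members did, against 3.39%. With ceritinib in LR2 no member did, against 0.513%. With ceritinib in LR3, GAR1, WDR43 and POLR1B did, against 0.57%. Of these, WDR43 fell that far on both of its probe sets (-0.65 and -0.51). GAR1 was at -0.15 on its other probe set, and POLR1B at -0.43 to -0.03 on its others. At a lower fold of 0.3 log2 units the counts with ceritinib were 28 in parental cells, 4 in LR2 and 14 in LR3, against 9.92%, 2.99% and 4.84% of all genes tested.

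**Figure D1:**
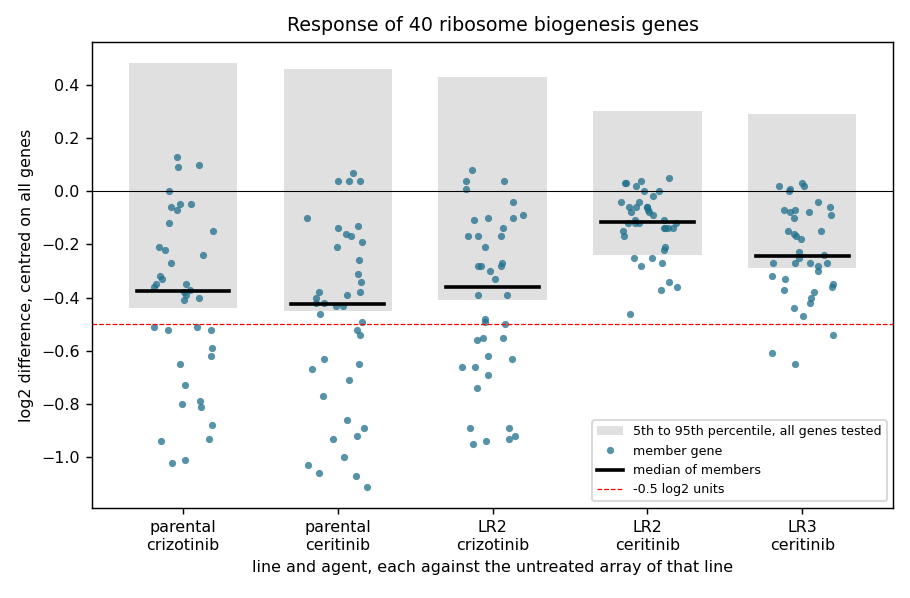
Difference of each of the 40 members from the untreated array of its line (log2 units, vertical axis) for each line and agent (horizontal axis); points are genes, black bars the members' medians, and grey boxes span the 5th to 95th percentile of all genes tested. The members' medians are -0.38, -0.42 and -0.36 in the first 3 columns, and -0.11 and -0.24 with ceritinib in LR2 and LR3; the dashed line marks -0.5.

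The 2 subunits of RNA polymerase I were lower with crizotinib in both lines and with ceritinib in parental cells. POLR1B, the subunit that with the largest subunit forms the active centre, had a signal of 7.58 untreated, 7.01 with crizotinib and 6.94 with ceritinib in parental cells. It was 7.66, 7.03 and 7.68 in LR2 in the same order, and 7.72 untreated and 7.13 with ceritinib in LR3. After centring, POLR1B with ceritinib differed from untreated by -0.07 in LR2 and by -0.61 in LR3, where its signal was near that of the crizotinib arrays. The LR3 value rests on the chosen probe set, and the other POLR1B probe sets gave -0.43 to -0.03 there. POLR1C, a subunit shared with RNA polymerase III, had a signal of 8.33, 7.84 and 7.71 in parental cells, 8.82, 8.27 and 8.70 in LR2, and 8.67 and 8.61 in LR3. All resistant arrays except LR2 with crizotinib were above untreated parental cells in POLR1C.

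The 8 snoRNP proteins had a median difference of -0.38 with crizotinib and -0.35 with ceritinib in parental cells, and of -0.06 with ceritinib in LR2. NOP56, a core protein of box C/D particles, had a signal of 11.00, 10.61 and 10.62 in parental cells, 11.12, 10.57 and 11.12 in LR2, and 10.92 and 10.67 in LR3. The 3 arrays with the lowest NOP56 signal were the crizotinib arrays and parental cells with ceritinib on the chosen probe set. On another NOP56 probe set LR3 with ceritinib was the lowest array, at 9.20. The ceritinib difference of NOP56 in LR3 was -0.27 on the chosen probe set and -0.42 to -0.36 on the others. NOP58, its partner in the same particles, stood at -0.52 with crizotinib in parental cells and at -0.56 in LR2, the lowest of the role there. FBL, fibrillarin, the methyltransferase of these particles, had a signal of 11.32, 11.43 and 11.37 in parental cells, 11.33, 11.37 and 11.38 in LR2, and 10.98 and 11.01 in LR3. Its 5 inhibitor differences were -0.04 to 0.09, and both LR3 arrays were below the other 6. NHP2, a core protein of H/ACA particles, likewise moved by at most 0.10 in any line, whereas DKC1, the pseudouridine synthase of the same particles, was at -0.39 and -0.42 in parental cells.

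**Figure D2:**
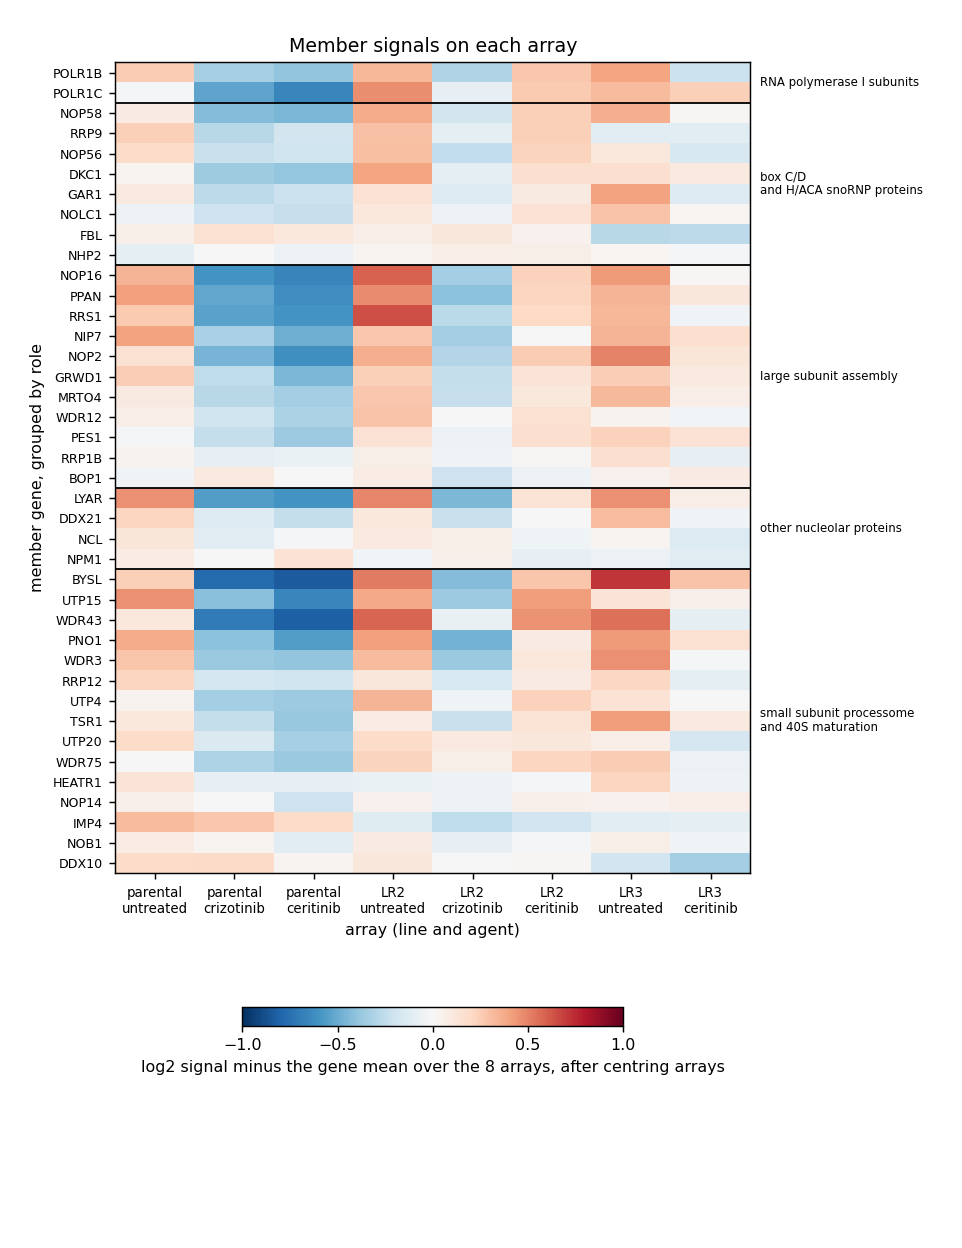
Signal of the 40 members (rows, grouped by role) on the 8 arrays (columns), as log2 signal minus the gene's mean over the 8 arrays after centring each array; red is above and blue below that mean. The blue columns are the 2 crizotinib arrays and parental cells with ceritinib, as for BYSL, whose signal is 7.67, 7.99 and 7.60 there and 8.66 to 9.14 on the other 5 arrays.

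Among the 15 small subunit factors, those that fell most included BYSL, UTP15, WDR43, PNO1 and WDR3. BYSL, bystin, a factor of small subunit maturation, had a signal of 8.66, 7.67 and 7.60 in parental cells, 8.94, 7.99 and 8.78 in LR2, and 9.14 and 8.72 in LR3. Its 3 lowest arrays were parental cells with either agent and LR2 with crizotinib, and the other 5 lay above all 3. UTP15, part of the complex that first binds the nascent precursor, had a signal of 7.04, 6.18 and 5.94 in parental cells, 6.96, 6.22 and 7.08 in LR2, and 6.71 and 6.65 in LR3. Its ceritinib difference was 0.03 in LR2 and -0.08 in LR3, against -1.11 in parental cells. The other UTP15 probe sets showed a smaller contrast. They gave -0.23 and -0.05 in LR2, the same in LR3, and -0.98 and -0.78 in parental cells. WDR43, of the same complex, had a signal of 8.49, 7.70 and 7.58 in parental cells, 8.97, 8.31 and 8.92 in LR2, and 8.94 and 8.31 in LR3. LR3 with ceritinib had the WDR43 signal of LR2 with crizotinib, and both stayed above inhibited parental cells.

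PNO1, an RNA-binding protein of the late small subunit precursor, had a signal of 9.49, 8.72 and 8.57 in parental cells, 9.53, 8.64 and 9.28 in LR2, and 9.54 and 9.28 in LR3. NOB1, the nuclease that acts with PNO1 at the last cut, differed from untreated by at most 0.19 in any line. WDR3, a member of a second early complex of the processome, had a signal of 8.35, 7.72 and 7.69 in parental cells, 8.39, 7.70 and 8.26 in LR2, and 8.53 and 8.08 in LR3. The role also held genes with little response: its median was -0.35 with crizotinib in parental cells, and DDX10, an RNA helicase, stood at 0.00 there. DDX10 had a signal of 6.55, 6.57 and 6.40 in parental cells, 6.48, 6.37 and 6.46 in LR2, and 6.17 and 6.04 in LR3, so that its 2 lowest arrays were those of LR3. IMP4, an early processome protein, had a signal of 9.08, 9.05 and 8.96 in parental cells, 8.65, 8.51 and 8.66 in LR2, and 8.65 and 8.69 in LR3. All 3 parental arrays exceeded all 5 resistant arrays in IMP4, at every agent.

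The 11 large subunit factors had medians of -0.51 and -0.71 with crizotinib and ceritinib in parental cells, -0.50 with crizotinib in LR2, and -0.14 and -0.23 with ceritinib in LR2 and LR3. NOP16 had a signal of 9.86, 8.94 and 8.87 in parental cells, 10.11, 9.18 and 9.83 in LR2, and 9.95 and 9.55 in LR3. PPAN had a signal of 7.78, 6.87 and 6.76 in parental cells, 7.85, 6.96 and 7.67 in LR2, and 7.71 and 7.50 in LR3. RRS1, which helps to bring the 5S particle into the large subunit precursor, had a signal of 9.78, 9.00 and 8.93 in parental cells, 10.17, 9.25 and 9.80 in LR2, and 9.85 and 9.50 in LR3. In all 3 genes the crizotinib arrays and parental cells with ceritinib were the 3 lowest, and the ceritinib arrays of the resistant lines lay above them and below the untreated array of their own line. Among the genes of the trimer that PES1, BOP1 and WDR12 form, BOP1 differed in sign: with crizotinib it was at 0.13 in parental cells and at -0.28 in LR2, while PES1 was at -0.22 and -0.21 and WDR12 at -0.27 and -0.28.

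The 4 other nucleolar proteins did not behave alike. LYAR, a nucleolar zinc finger protein of precursor processing, had a signal of 9.37, 8.37 and 8.32 in parental cells, 9.40, 8.46 and 9.13 in LR2, and 9.37 and 8.99 in LR3. Its 3 untreated arrays were within 0.03 of each other, and crizotinib took it 1.02 lower in parental cells. NCL, nucleolin, had a signal of 12.51, 12.29 and 12.38 in parental cells, 12.49, 12.45 and 12.43 in LR2, and 12.42 and 12.27 in LR3. NPM1, nucleophosmin, had a signal of 13.12, 13.07 and 13.20 in parental cells, 13.02, 13.10 and 13.05 in LR2, and 12.99 and 12.95 in LR3. The inhibitor differences of NCL were -0.24 to -0.04 and those of NPM1 -0.07 to 0.08. DDX21, an RNA helicase, was at -0.35 and -0.46 in parental cells and at -0.12 and -0.35 with ceritinib in LR2 and LR3.

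**Figure D3:**
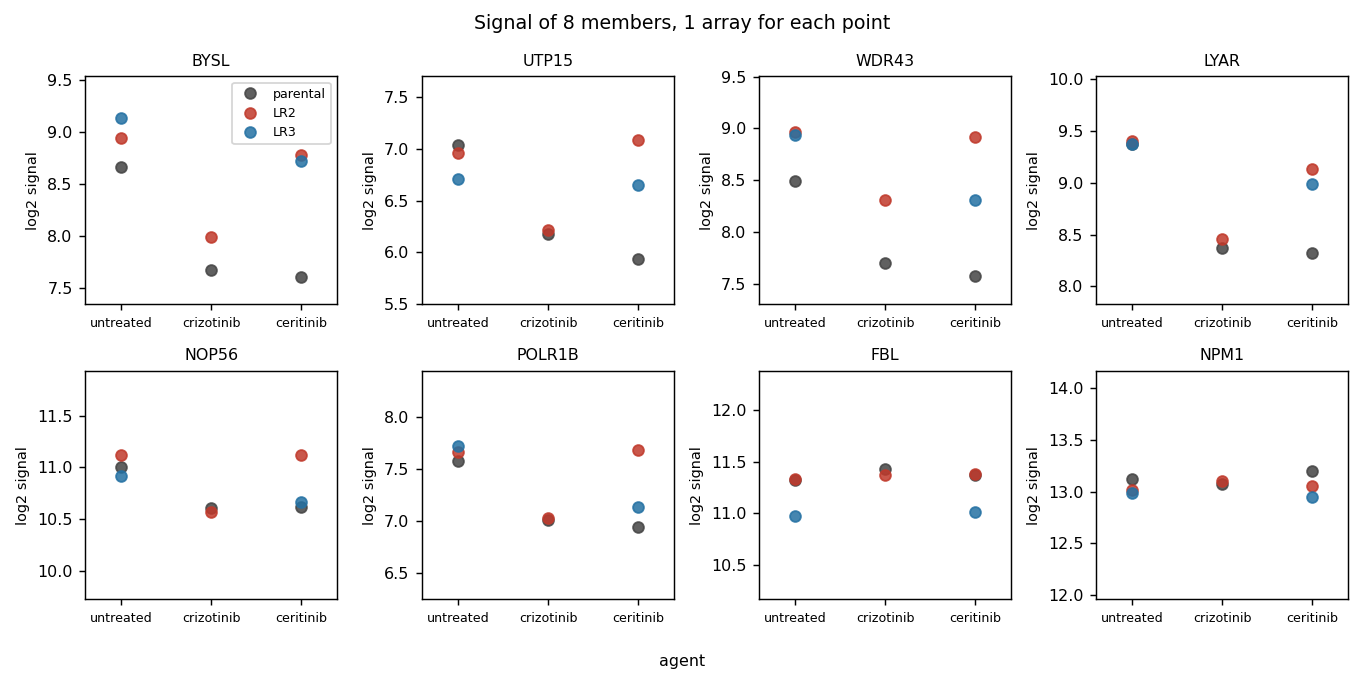
Deposited log2 signal (vertical axis) of 8 members by agent (horizontal axis), with 1 point for each array, coloured by line; every panel spans the same number of log2 units. BYSL, UTP15, WDR43, LYAR, NOP56 and POLR1B are lower on the crizotinib arrays and in parental cells with ceritinib than in the untreated array of the line. On the probe sets shown, LR3 with ceritinib is close to those arrays in NOP56 and POLR1B, and other POLR1B probe sets fall less there. FBL and NPM1 differ little between agents.

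The 8 arrays were fitted in limma as the sum of a line and an agent effect, with Benjamini-Hochberg adjustment over the 10527 genes. This additive model takes the effect of an agent as equal in every line that received it, and does not test that. Responses that differ between lines enter its residual spread, so a gene not called may still have responded in some lines. Its crizotinib term rests on parental cells and LR2, since LR3 had no crizotinib array. Crizotinib against untreated called 4 members, all lower: LYAR (-0.92 ± 0.17, adjusted p = 0.0479), NOP16 (-0.89 ± 0.16, adjusted p = 0.047), RRS1 (-0.81 ± 0.13, adjusted p = 0.046) and WDR3 (-0.67 ± 0.12, adjusted p = 0.047). Values after ± are limma standard errors. Of all genes, 0.779% were called lower and 1.79% higher. This count rested on single arrays: it was 24 without parental cells with ceritinib, where 16.5% of all genes were called, and 0, with 0% of genes, without any one of untreated parental cells, parental cells with crizotinib, either LR2 array that was untreated or had crizotinib, or either LR3 array. Ceritinib against untreated, as 1 term over all lines, called no gene (0%), although 24 members and 2014 genes had an unadjusted p under 0.05 in limma. Ceritinib against crizotinib also called no gene (0%), and no member but 688 genes had an unadjusted p under 0.05; the count of members called was 7 without parental cells with ceritinib, against 3.25% of genes.

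A model with 6 cells, which pooled the inhibitors within a line, called no gene in any of its 5 comparisons. For the inhibitors in parental cells the share called was 0%, with 26 members and 2139 genes at an unadjusted limma p under 0.05. For the inhibitors in LR2 it was 0%, with 6 members and 993 genes, and for ceritinib in LR3 it was 0%, with 4 members and 635 genes. For the response of LR2 minus that of parental cells it was 0%, with 0 members and 347 genes, and for LR3 minus parental cells it was 0%, with 1 member and 646 genes. This model takes the spread within LR2 from arrays that differed in agent, and 26 members and 17.8% of all genes were called in parental cells without the LR2 array of either agent, so calls rose over all genes. Without LR2 with ceritinib 18 members and 11.1% of genes were called in LR2, and without either inhibited LR2 array 3 members and 1.58% of genes in LR3. Without parental cells with crizotinib 11 members and 4.24% of genes were called in parental cells, and without parental cells with ceritinib 8 members and 4.35%. The response of LR2 minus parental cells called 6 members and 3.76% of genes without LR2 with crizotinib, and that of LR3 minus parental cells 6 members and 4.49% without either inhibited LR2 array.

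A further limma model was added after the values were seen, so its calls are no independent support for the pattern described above. It had a term for each line, 1 crizotinib term shared by parental cells and LR2, a ceritinib term for parental cells, and a ceritinib term shared by LR2 and LR3. In it crizotinib lowered 24 of 40 members and raised none, against 7.67% of all genes lower and 8.86% higher. The largest falls were those of BYSL (-1.00 ± 0.08, adjusted p = 0.000236), LYAR (-0.98 ± 0.07, adjusted p = 0.000197), NOP16 (-0.94 ± 0.07, adjusted p = 0.000214) and PPAN (-0.90 ± 0.07, adjusted p = 0.000256). By role the 24 were 2 of 2 polymerase subunits, 4 of 8 snoRNP proteins, 8 of 15 small subunit factors, 8 of 11 large subunit factors and 2 of 4 others. NOP56 fell by 0.51 (± 0.09, adjusted p = 0.00641) and POLR1B by 0.68 (± 0.12, adjusted p = 0.00816) in limma. The count was 12, with 2.71% of all genes called, without LR2 with ceritinib, without untreated LR3 or without LR3 with ceritinib.

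Ceritinib in parental cells lowered 20 of 40 members in the same model and raised none, against 4.46% of genes lower and 4.01% higher. The largest falls were those of UTP15 (-1.08 ± 0.11, adjusted p = 0.00134), BYSL (-1.07 ± 0.11, adjusted p = 0.00148), LYAR (-1.04 ± 0.10, adjusted p = 0.00126) and PPAN (-1.02 ± 0.10, adjusted p = 0.00134). No member, and 0.0095% of all genes, was called without LR2 with ceritinib, without untreated LR3 or without LR3 with ceritinib, while without untreated LR2 the count was 28, with 17.1% of genes. Ceritinib in the resistant lines called no member, and 0.0095% of all genes; 15 members and 1364 genes had an unadjusted limma p under 0.05. The median of the members' differences there was -0.15, with 37 of 40 below 0, and the count was 4, with 2.21% of genes, without untreated parental cells, parental cells with crizotinib or LR2 with crizotinib, and 8, with 4.41%, without untreated LR2.

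The difference between the ceritinib responses, resistant lines minus parental cells, was itself tested in that model. It was above 0 in 35 of 40 members, with a median of 0.29, and 5 members were called higher and none lower, against 0.931% of genes higher and 0.237% lower. These were UTP15 (1.05 ± 0.12, adjusted p = 0.00812), PPAN (0.77 ± 0.12, adjusted p = 0.0288), BYSL (0.73 ± 0.13, adjusted p = 0.0467), LYAR (0.66 ± 0.12, adjusted p = 0.0488) and PNO1 (0.66 ± 0.12, adjusted p = 0.0495). The count was 12 without untreated LR2, with 6.11% of genes called, and 0, with 0% of genes, without LR2 with ceritinib, untreated LR3 or LR3 with ceritinib. In single arrays the ceritinib response of LR2 was above that of parental cells by a median of 0.35, and in 35 of 40 members. That of LR3 was above it by a median of 0.19, in 31 of 40. The crizotinib response of LR2 minus that of parental cells had a median of 0.00, with 20 members above and 20 below 0.

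**Figure D4:**
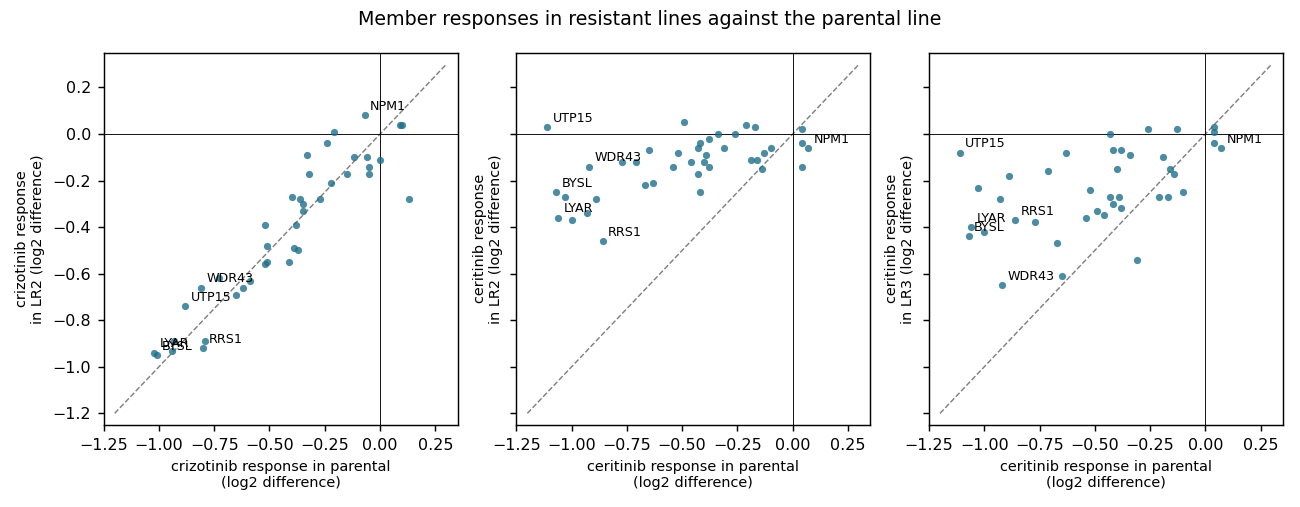
Responses of the 40 members in a resistant line (vertical axis) against the parental line (horizontal axis), in log2 units from untreated: crizotinib in LR2 on the left, ceritinib in LR2 in the middle, ceritinib in LR3 on the right. The dashed line marks equal responses; with crizotinib the points lie along it, and with ceritinib most lie above it, as UTP15 does at -1.11 in parental cells and 0.03 in LR2.

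The parental crizotinib response and the LR2 responses share no array, so the 16 members that fell by at least 0.5 with crizotinib in parental cells could be followed into LR2 and LR3. With crizotinib in LR2, 14 of the 16 fell that far, with a median of -0.68. With ceritinib none of them did in LR2, where the median was -0.21, and 2 did in LR3, where it was -0.36. Among all 424 tested genes chosen in the same way the counts were 257, 24 and 27, with medians of -0.57, -0.15 and -0.15. Across the 40 members the crizotinib responses of parental cells and LR2 had a Pearson correlation of 0.92, and across all 10527 genes of 0.78. For ceritinib the members' correlation was 0.60 between parental cells and LR2 (all genes 0.49) and 0.52 between parental cells and LR3 (0.40). Between LR2 and LR3, which share 1 ceritinib term in the added model, it was 0.27 (all genes 0.25). Genes of 1 array share that array, and the values are a description. Within LR2, ceritinib left 36 of 40 members higher than crizotinib did, by a median of 0.27, against 0.01 over all genes. In parental cells the same difference had a median of -0.05. The LR2 array with ceritinib is also the one with the highest median of all probe sets, and its members' differences are given after centring; the part of this array in the result was not tested.

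Without inhibitor no member differed between a resistant line and parental cells by 0.5 or more in either direction. Untreated LR2 exceeded untreated parental cells by 0.5 or more in none of the 40, against 4.22% of all genes, and untreated LR3 in none, against 4.46%. The medians were 0.05 and 0.08. With crizotinib LR2 exceeded parental cells that far in WDR43 alone, at 0.63, against 4.08% of genes, with a median of 0.07. With ceritinib LR2 exceeded parental cells in 18 members, against 6.41%, with a median of 0.47, and LR3 did in 13, against 5.9%, with a median of 0.30. These differences share the parental ceritinib array. The largest were WDR43 in LR2 (1.26) and BYSL in LR3 (1.11). The lowest were those of IMP4 in LR2 (-0.38) and of FBL in LR3 (-0.37).

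The additive model's line terms average over the agents, ceritinib arrays included. LR2 against parental cells called 11 members higher and 1 lower, against 12.7% of genes higher and 11.7% lower. The largest differences were those of WDR43 (0.79 ± 0.14, limma adjusted p = 0.00879), POLR1C (0.62 ± 0.11, adjusted p = 0.00989), BYSL (0.57 ± 0.16, adjusted p = 0.0388) and RRS1 (0.48 ± 0.11, adjusted p = 0.0233), and the lower gene was IMP4 (-0.44 ± 0.06, adjusted p = 0.00406). The other 7 higher members were DKC1, NOP16, NOP58, PES1, UTP4, WDR12 and WDR75, at 0.29 to 0.46. The members' median was 0.21, and 0.08 without either ceritinib array of these lines. Without parental cells with ceritinib the difference of BYSL was 0.33. The count of 12 fell to 3 without untreated LR2 or without LR2 with ceritinib, with 13% and 12.7% of genes called, and to 7 without either crizotinib array, with 12.3%. With line terms alone and no agent term, 1 member was called, and the share of all genes is not given for that run.

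LR3 against parental cells called 3 members higher and 3 lower, against 11.8% of genes higher and 12.8% lower. BYSL (0.74 ± 0.19, limma adjusted p = 0.0286), POLR1C (0.57 ± 0.13, adjusted p = 0.0233) and PES1 (0.35 ± 0.10, adjusted p = 0.041) were higher. DDX10 (-0.40 ± 0.07, adjusted p = 0.0101), IMP4 (-0.37 ± 0.08, adjusted p = 0.0141) and FBL (-0.36 ± 0.07, adjusted p = 0.0111) were lower. The members' median was 0.20, and without parental cells with ceritinib it was 0.03, with BYSL at 0.43 and POLR1C at 0.37, both still called. The count of 6 was 12 without LR2 with ceritinib (22% of genes called), 3 without untreated LR2 (18.4%), 1 without untreated LR3 (8.72%) and 0 without LR3 with ceritinib (7.41%). LR3 against LR2 called none higher and 2 lower, FBL (-0.32 ± 0.07, limma adjusted p = 0.0156) and DDX10 (-0.31 ± 0.07, adjusted p = 0.0248), against 10.1% of genes higher and 12.1% lower. That count was 5 without parental cells with ceritinib, with 27.3% of genes called, and 0 without untreated LR2, LR2 with ceritinib or either LR3 array, with 7.8% to 11.9%.

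Other genes of ribosome production were taken from lists kept apart from the 40. These lists, like the members, were chosen with earlier results of these data known, so they are no independent comparison. Of 51 other large subunit assembly genes tested, the added model called 18 lower with crizotinib and 15 lower with ceritinib in parental cells, and none higher. Over all genes it called 7.67% and 4.46% lower, and these shares stand beside the counts of the lists that follow too. The medians of the 51 in parental cells were -0.20 and -0.25. URB2 (-0.95 ± 0.07, limma adjusted p = 0.000214), BRIX1 (-0.92 ± 0.09, adjusted p = 0.000445) and PAK1IP1 (-0.83 ± 0.09, adjusted p = 0.000849) fell most with crizotinib. URB2 was the only one of the 51 called for a smaller ceritinib response in the resistant lines (0.90 ± 0.12, limma adjusted p = 0.0137). URB2 signal was 6.13, 5.17 and 4.85 in parental cells, 6.06, 5.15 and 5.81 in LR2, and 6.10 and 5.72 in LR3, so the lowest values lie under the floor of 5.36 and may be compressed.

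Of 38 other small subunit processome genes, 11 were called lower with crizotinib and 7 with ceritinib in parental cells, and none higher. Their medians in parental cells were -0.16 and -0.24. LTV1 fell most, at -0.65 ± 0.08 (limma adjusted p = 0.00184) and -0.77 ± 0.11 (adjusted p = 0.0067). Of 18 further genes of the RNA polymerase I machinery, 5 were lower with crizotinib and 3 with ceritinib in parental cells. The medians of these 18 were near 0, at -0.03 and -0.11 in parental cells and -0.08 with crizotinib in LR2. Among them RRN3, the initiation factor that links the polymerase to growth signals, fell by 0.35 (± 0.08, limma adjusted p = 0.0212) and by 0.50 (± 0.11, adjusted p = 0.0282). The promoter factor UBTF was at -0.11 ± 0.08 (limma adjusted p = 0.406) and 0.11 ± 0.11 (adjusted p = 0.654), and the largest subunit, POLR1A, was at 0.01 ± 0.07 (adjusted p = 0.968) and -0.32 ± 0.10 (adjusted p = 0.0997). Of 13 snoRNP assembly genes 3 and 2 were lower, with ZNHIT6 at -0.57 ± 0.07 (limma adjusted p = 0.00208) with crizotinib. The medians of the 13 in parental cells were -0.15 and -0.18. Of 25 trimming nucleases and exosome genes 5 and 3 were lower, with POP1 at -0.77 ± 0.08 (limma adjusted p = 0.000767). The medians of the 25 in parental cells were -0.14 and -0.12.

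No such fall was seen in the genes of the ribosome's own proteins. Of 65 cytosolic ribosomal protein genes, none was called by limma for crizotinib or for ceritinib in parental cells, and none had an unadjusted p under 0.05 in either comparison. Their medians were 0.01 and 0.00 in parental cells, 0.04 with crizotinib in LR2, and -0.04 with ceritinib in LR2 and in LR3. Of 23 translation initiation and elongation factors 6 fell with crizotinib and 2 with ceritinib in parental cells, with EIF2S1 at -0.62 ± 0.08 (limma adjusted p = 0.00141). The medians of the 23 in parental cells were -0.08 and -0.10. Of 20 nucleotide and polyamine synthesis genes linked to MYC, 7 and 6 fell, with medians in parental cells of -0.10 and -0.12. AMD1 (-0.75 ± 0.09, limma adjusted p = 0.00134) and ODC1 (-0.64 ± 0.07, adjusted p = 0.00116), the key enzymes of polyamine synthesis, and PPAT (-0.61 ± 0.08, adjusted p = 0.00196), which opens purine synthesis, fell most with crizotinib.

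**Figure D5:**
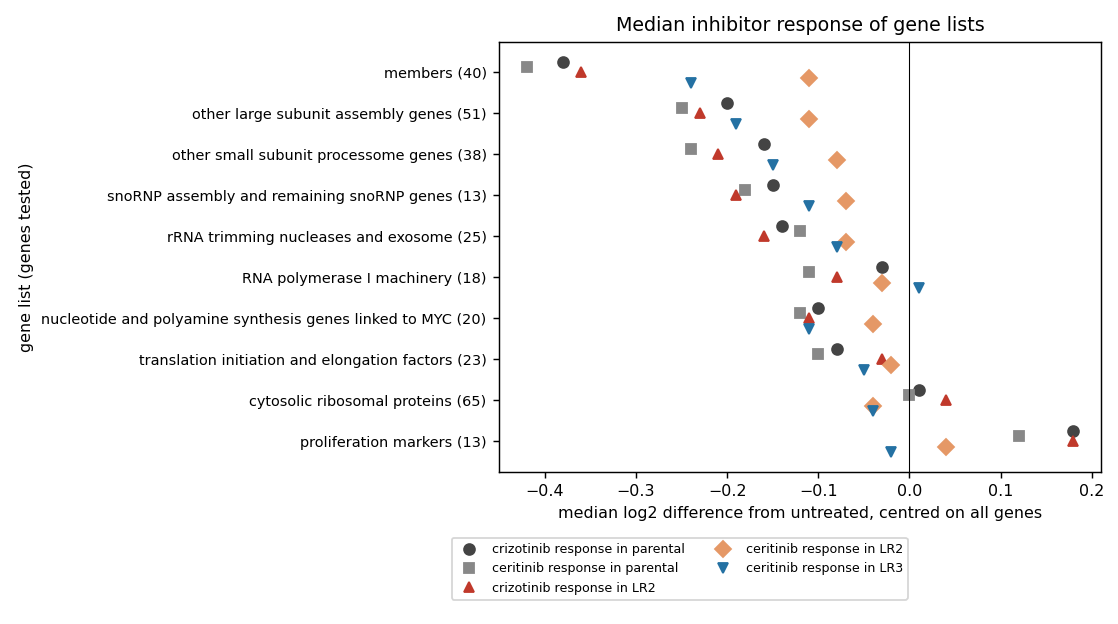
Median difference from untreated (log2 units, horizontal axis) of the 40 members and of 9 other gene lists (rows, with the genes tested in brackets) for the 5 line and agent pairs (symbols). The members lie lowest, at -0.42 to -0.36 where the fall was large, the other large subunit assembly genes lie at -0.25 to -0.20 there, and the cytosolic ribosomal proteins stay between -0.04 and 0.04. Members and lists were chosen with earlier results of these data known, so their order is a description and no independent comparison.

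MYC, the gene of the transcription factor named above, had a signal of 10.22 untreated, 9.28 with crizotinib and 9.28 with ceritinib in parental cells, 10.19, 9.62 and 10.32 in LR2, and 10.16 and 10.13 in LR3. The crizotinib arrays and parental cells with ceritinib were its 3 lowest, as for most members. In the added model MYC fell by 0.76 (± 0.10, limma adjusted p = 0.00197) with crizotinib and by 0.85 (± 0.13, adjusted p = 0.00845) with ceritinib in parental cells, and the difference of the ceritinib responses was 0.80 ± 0.16 (adjusted p = 0.0642). MYCL was at -0.32 ± 0.12 (limma adjusted p = 0.104) with crizotinib and differed between the resistant lines, with LR3 below LR2 by 1.04 (± 0.20, adjusted p = 0.0123) in the additive model. Of the 12 genes of the MYC network tested, the added model called 4 higher and 1 lower with crizotinib, and 3 higher and 1 lower with ceritinib in parental cells. MXD3 and MXI1, which code for MAX partners that oppose MYC at its sites, were higher with crizotinib, by 0.84 ± 0.09 (limma adjusted p = 0.000704) and 0.58 ± 0.09 (adjusted p = 0.00412).

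2 further readouts of the cells are set beside these values, and their part in the members' differences was not tested. Transcripts downstream of ALK signalling changed in the same arrays: over 15 such genes the medians were -1.71 and -1.71 in parental cells, -1.78 with crizotinib in LR2, and -0.20 and -0.12 with ceritinib in LR2 and LR3. DUSP6, a phosphatase induced by ERK, was at 12.41, 7.93 and 7.39 in parental cells, 11.79, 7.26 and 11.51 in LR2, and 12.17 and 12.04 in LR3. Over 13 proliferation markers the medians were 0.18 and 0.12 in parental cells, 0.18 and 0.04 in LR2 and -0.02 in LR3, and the added model called 4 higher and none lower with crizotinib.

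The start sites of the members were searched for the E-box CACGTG, the core element that MYC with MAX binds, because the members and MYC moved on the same arrays. RefSeq promoter windows of 300 bases (250 before and 50 after the start, assembly GRCh38.p14) matched 34 of the 40 members, and 12 of them (35.3%) held the letters CACGTG, which read the same on both strands. The share was 10.4% over 8733 genes tested and 7.43% over all 27305 windows. In all 12 genes a match lay within 40 bases of the start, between -16 and 36 for its first base. The variant CACGCG, searched on both strands, was in 11 members (32.4%, against 18.5% of genes tested), and the GC box GGGCGG in 26 (76.5%, against 70.8%). The E-box was in 5 of the 14 matched members that fell by at least 0.5 with crizotinib in parental cells and in 7 of the 20 others. CACGCG was in 2 of those 14 and in 9 of the 20 others, and GGGCGG in 11 and 15. A match is a description of the letters and not a bound site.

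The 30 bases around the E-box are shown for 3 members that fell and for FBL, which was not called for either agent, in lower case with the E-box in capitals, 5′ to 3′ on the strand of the gene:
BYSL: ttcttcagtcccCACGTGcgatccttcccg
WDR43: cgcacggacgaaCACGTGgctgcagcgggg
PNO1: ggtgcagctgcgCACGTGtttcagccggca
FBL: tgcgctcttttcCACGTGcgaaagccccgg
These lie at chr6:41921515-41921544 (plus strand) for BYSL, chr2:28894658-28894687 (plus strand) for WDR43, chr2:68157885-68157914 (plus strand) for PNO1 and chr19:39846356-39846385 (minus strand) for FBL, in GRCh38.p14. The first base of the E-box is 29, 4, 10 and 7 bases into the transcript, counting the start as 1.

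Most further probe sets of the members had the direction of the chosen one, and the fewest did with ceritinib in LR2. The 40 genes had 94 probe sets, and 47 further ones of 28 genes exceeded the floor. Of these 47, 41 had the sign of the chosen probe set with crizotinib in parental cells, 39 with ceritinib in parental cells and 42 with crizotinib in LR2. With ceritinib in LR2, where differences were small, 34 did, and 44 did in LR3. The genes with an opposite probe set in parental cells were HEATR1, NHP2, NPM1, RRP12 and RRP1B. With ceritinib in LR2 they were NCL, NHP2, NIP7, NOLC1, NOP14, POLR1B, UTP15, WDR12 and WDR3. The chosen probe set carried a suffix for possible cross-hybridization in 18 members, 11 with _s and 7 with _x.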

How the data were processed

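The deposited values were log2 probe set signals of 8 PrimeView arrays, made with RMA per the submitters' processing notes; the sources used here give no software, version or genome build. Per the labels' protocols, RNA was isolated with an RNeasy Mini kit, amplified with a 3' IVT Express kit and labelled with biotin. Of 49395 probe sets, 102 were controls, 44988 had 1 gene symbol in the platform annotation of the repository, 1832 had several and 2473 none. Each array was shifted so that the median deviation from the gene means over 18132 genes was 0. Genes above 5.36 in at least 2 arrays were tested with limma 3.58.1 in R 4.3.3 and adjusted over all 10527. The additive model had 3 residual and 4.02 prior degrees of freedom, the 6-cell model 2 and 4.09, and the model added after the values were seen 2 and 5.98. The script was tested on simulated data.

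The members, gene lists and tests were chosen with earlier results of these data known. Given in full were the 4 called members with the largest differences in each comparison, and NOP56, NCL, FBL, NPM1, POLR1B and WDR43; 3 called genes at most were named for another list, besides MYC, MYCL, RRN3, UBTF and POLR1A, and MYCL is given only for 2 of the comparisons. DUSP6 was named as a check of the inhibitors. Alternatives covered centring, normalization, the filter, the choice of probe sets, the variance model, the model terms, the fold and leaving out each array.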

Additional observations from a re-analysis of the deposited data

Results flagged for a closer look

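In 5 members the response to ceritinib differed between the resistant lines and parental cells in a direct test of that difference, in the limma model that was added after the values were seen. The ceritinib response of LR2 and LR3 minus that of parental cells was 1.05 log2 units for UTP15, 0.77 for PPAN, 0.73 for BYSL, 0.66 for LYAR and 0.66 for PNO1. These are values of the chosen probe sets, and that of UTP15 fell furthest in parental cells among its 3. PPAN had 1 probe set, with the suffix _x for possible cross-hybridization, and the chosen set of LYAR had the suffix _s. The run without suffixed probe sets is given below. In each of the 5 the resistant lines fell less than parental cells did. Without LR2 with ceritinib, or without either LR3 array, none of the 5 was called, and without untreated LR2 the count of members was 12.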

How the results depend on the processing

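No named member's difference changed sign under any alternative run. Over the named members and the members' medians, 528 values held under alternatives, 102 calls of named members were lost and 12 medians moved; the median of LR3 against LR2 went from -0.03 to 0.08 without LR2 with ceritinib and to 0.04 with line terms alone. Counts of members that moved beyond 1.5 times are these. The share of all genes called in these runs is not given, so the counts show how calls depend on the processing and are no result about the members. For LR2 against parental cells, line terms alone called 1. For LR3 against parental cells, the mean of all probe sets called 10 and the trended, robust variance 10. For LR3 against LR2, testing without a filter called 1. For crizotinib in the additive model, quantile normalization called 0, no filter 0, a filter in all 8 arrays 12 and the trended, robust variance 16. In the added model, testing without a filter called 13 for ceritinib in parental cells and 1 for the difference of the ceritinib responses; that difference called 1 without probe sets suffixed for cross-hybridization and 9 with the trended, robust variance, which called 3 for ceritinib in the resistant lines. The cause was not tested. At a fold of 0.3 log2 units the single-array counts were 26 (crizotinib) and 28 (ceritinib) in parental cells, 4 and 14 with ceritinib in LR2 and LR3, against 10.1%, 9.92%, 2.99% and 4.84% of all genes. They were 5 and 5 for LR2 above parental cells untreated and with crizotinib (12.1% and 11.5% of genes), and 7 and 20 for LR3 above them untreated and with ceritinib (14.4% and 15%). Leaving out each array in turn gave 3 to 11 members for LR2 against parental cells, 0 to 12 for LR3 against parental cells, 0 to 5 for LR3 against LR2, 0 to 24 for crizotinib and 0 to 7 for ceritinib against crizotinib. In the 6-cell model it gave 0 to 26 in parental cells, 0 to 18 in LR2, 0 to 3 in LR3, and 0 to 6 for each difference of responses. In the added model it gave 12 to 26 for crizotinib, 0 to 28 for ceritinib in parental cells, 0 to 8 in the resistant lines and 0 to 12 for their difference. The 26 for crizotinib in the added model came without untreated LR2, with 21.1% of all genes called. The 11 for LR2 against parental cells came without untreated parental cells, with 16% of genes called. Shares of all genes for the other highest counts are given with the results above. No paired analysis was possible because every condition had 1 array and so 1 replicate number. With line terms in the additive and added models, their agent terms compare agents within lines. Signals near the floor limit low genes such as UTP15 and DDX10.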
